A study of Mus musculus with 8 samples.

Results

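Oxidative phosphorylation is described here through the nuclear genes of its 5 complexes in macrophages from mouse mammary tumours. The genes were chosen by name. A probe set had to carry a single gene symbol that begins with Nduf, Uqcr or Atp5, that reads Cox followed by a digit from 4 to 8 and a letter, or that is Sdha, Sdhb, Sdhc, Sdhd, Cyc1 or Cycs. This gave 92 genes of the 18194 with such a probe set, each represented by its probe set of highest mean over the 8 arrays. They fell into 34 genes of complex I, 4 of complex II, 9 of complex III, 19 of complex IV and 17 of complex V, with the gene of cytochrome c and 8 assembly factors of complex I, the Ndufaf genes. Ndufa4 and its relative Ndufa4l2 were counted with complex IV, where the Ndufa4 protein is now placed. Another 10 probe sets list one of these genes among several symbols and were not used, so Ndufs5 and Ndufb4, whose copies share such probe sets, are represented by their other probe set.

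The macrophages were sorted for the surface protein F4/80 from tumours of 80-day-old FVB mice that carried the PyMT oncogene. All animals had both E2f3 alleles flanked by recombination sites (E2f3 f/f). The 4 control arrays (B, C, D and G) had no Cre recombinase. On the 4 arrays of E2f3-deleted macrophages (A, E, F and H, the deleted arrays) the Lys Cre transgene, driven from the lysozyme gene of myeloid cells, was present, so deletion of E2f3 and the presence of Cre cannot be told apart. Groups were taken from the sample titles. The scan files carry other letters for some arrays, and grouping by those letters would exchange control B with deleted F. That grouping was run as an alternative. The labels do not say that arrays stem from separate animals, so p-values speak only of the spread among these samples and that spread may be technical.

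Complexes I and II pass electrons from NADH and succinate to ubiquinone, complex III hands them to cytochrome c, and complex IV to oxygen. Complexes I, III and IV pump protons across the inner mitochondrial membrane, and complex V, the ATP synthase, makes ATP as the protons return. In macrophages this pathway is known to be used most by alternatively activated cells, while inflammatory activation shifts cells towards glycolysis and slows the flow through the chain. E2F factors are best known for genes of the cell cycle and have also been linked to genes of oxidative metabolism, and the comparison of the groups addresses how these genes stand without E2f3. The subunits encoded by mitochondrial DNA were not analysed here.

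No gene of the 5 complexes passed the test for a difference between the groups. Of the 92 genes, 87 had a mean log2 signal at or above 6.0, the 40th percentile of all genes, and were tested. Of these, 0 passed an adjusted p of 0.05 (limma, Benjamini-Hochberg over all 10916 genes tested, smallest adjusted p of the 87 = 0.362), as did 0% of all genes tested. At an unadjusted p under 0.05 there were again 0 of the 87, where 14.2% of all genes tested lay under that value, 6.91% lower and 7.27% higher in E2f3-deleted macrophages. With arrays grouped by scan file letter, 7 of the 87 (8.05%) lay under it in limma, against 4.11% of all genes tested. A test with the same values but without moderated variances put 5 of the 87 under an unadjusted p of 0.05 (Ndufs3, Atp5j, Ndufs1, Ndufa1 and Sdhb) and 0 past the adjusted threshold (smallest adjusted p = 0.328). The share of all genes under that p in the unmoderated test was not counted, so these 5 have no background beside them. The values of the 2 groups did not overlap in 4 of the 87 genes, against 8.49% of all genes tested. Of the 184 probe sets that carry these symbols alone, 4 (2.17%) had an unadjusted p under 0.05, against 10.1% of all 45101 probe sets.

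**Figure D1:**
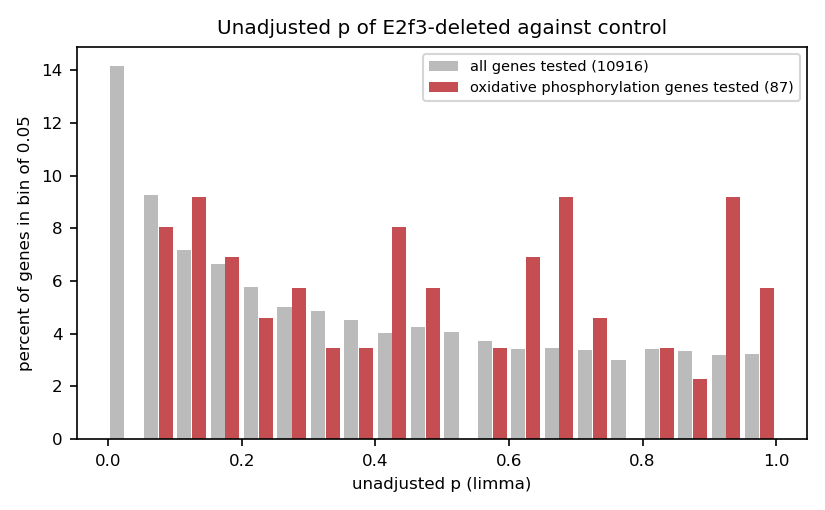
Share of genes, in percent, in each bin of 0.05 of the unadjusted limma p for E2f3-deleted against control arrays. Grey bars are all 10916 genes tested and red bars the 87 oxidative phosphorylation genes; the first bin holds 14.2% of the former and 0 of the latter.

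The differences were small as well as uncertain. Differences are given in log2 as the deleted group less the control group, with limma's standard error (SE). The median difference of the 87 genes was −0.03, the same as the −0.03 of all genes tested, and their median absolute difference was 0.0487, against 0.0976 for all genes. The 87 were bright, with a median log2 signal of 11.36 to 11.48 in controls, and comparisons with all genes were not matched for signal. Over all genes tested, 7.48% of those at log2 12 or more had an unadjusted p under 0.05 in limma (median SE 0.0642). Of the dimmer ones 14.6% did (median SE 0.0889). The part of signal level was not tested. The 95% confidence interval of the difference lay inside 1.5-fold in either direction (log2 0.58) for 85 of the 87 genes, against 81.8% of all genes tested. It lay inside a log2 difference of 0.32 either way for 76 of the 87, or 87.4%, against 53.6% of all genes. The 2 genes with wider intervals were Cox7a1 (−0.77 to 0.08) and Ndufa4l2 (−0.01 to 0.88), both with low signals. Because RMA gives all arrays one distribution, a change common to most genes would be hidden here.

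**Figure D2:**
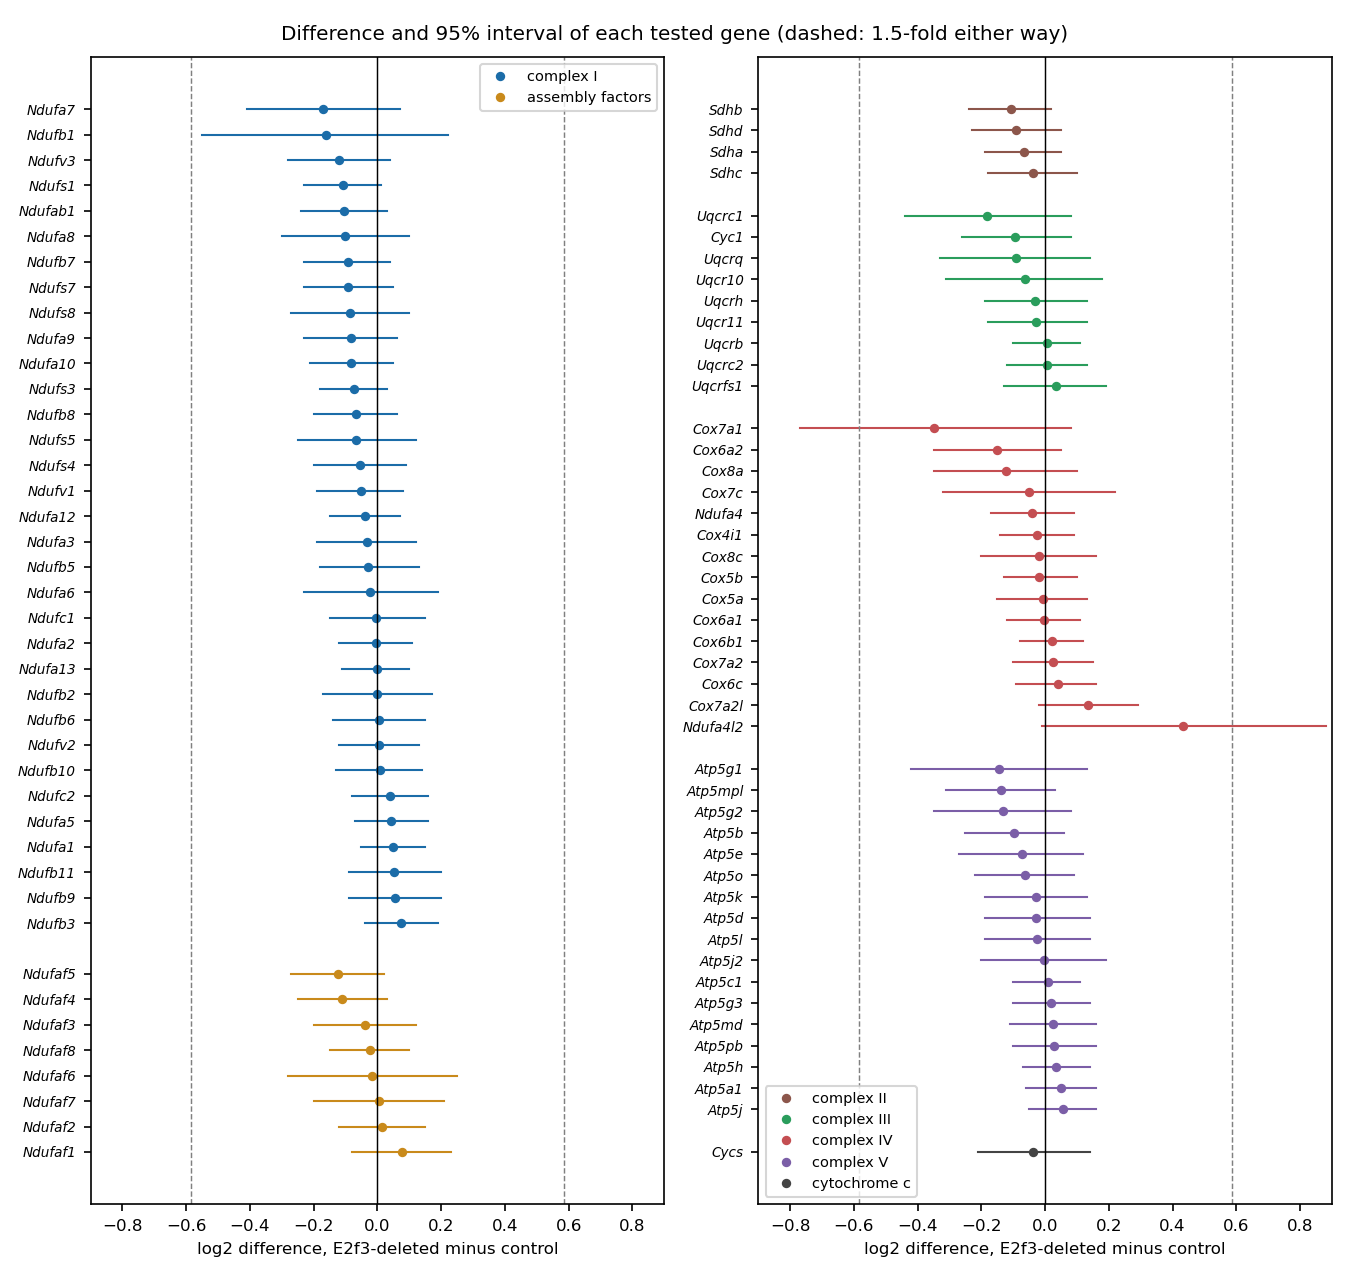
Log2 difference, E2f3-deleted minus control, of each of the 87 tested genes by complex, with its 95% confidence interval (limma, 4 arrays per group); dashed lines mark 1.5-fold in either direction. All intervals include 0, and only those of Cox7a1 and Ndufa4l2 cross a dashed line.

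By sign alone, 60 of the 87 genes (69.0%) had a difference below 0, against 58.7% of all genes tested. The medians by complex were −0.04 for complex I (24 of 33 tested genes below 0), −0.08 for complex II (4 of 4), −0.03 for complex III (6 of 9), −0.02 for complex IV (10 of 15) and −0.02 for complex V (10 of 17). The assembly factors had a median of −0.02 (5 of 8). The balance of signs depends on the scaling. When each array was centred on the median over genes, 97.7% of the 87 lay below 0, against 79.2% of all genes, whose median moved from −0.028 to −0.129, while that of the 87 moved to −0.13. The median of the 87 was thus that of all genes under both scalings. With quantile normalization over genes it was −0.028, against −0.056 for all genes. The excess of genes below 0, over the share of all genes, was absent with quantile normalization over genes (63.2%, against 65.3%). It was also absent with array weights (56.3%, against 57.3%) and without replicate A (57.5%, against 59.2%). It was larger with each array centred on the median over all probe sets (77%, against 61.6%) and with grouping by scan file letter (78.2%, against 57.7%). The same held without control B (72.4%, against 57.6%) and without replicate E (73.6%, against 57.8%). Without both replicates A and H, a choice made once the data were seen, the median of the 87 was 0.023.

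In complex I the catalytic arm was measured through Ndufv1, Ndufv2, Ndufs1, Ndufs3, Ndufs7 and Ndufs8. Ndufs1, an iron-sulphur subunit next to the NADH-oxidising site, had log2 signals of 10.62, 10.63, 10.64 and 10.61 in control replicates B, C, D and G and of 10.42, 10.57, 10.58 and 10.50 on deleted arrays A, E, F and H. The groups did not overlap, and replicates E and F lay just under the lowest control. Its difference was −0.11 (SE 0.0529, adjusted p = 0.393 in limma), the smallest p in the complex. Ndufs3, a core subunit of the arm that binds ubiquinone, was equally tight, with 11.40 to 11.41 in controls and 11.30 to 11.38 in E2f3-deleted macrophages, again without overlap, and a difference of −0.07 (SE 0.0448). The other core subunits had overlapping groups. Ndufs7, which carries the last iron-sulphur cluster before ubiquinone, differed by −0.09, and 11.22 in replicate H stood below 11.41 to 11.42 in the other E2f3-deleted arrays. Ndufs8, another iron-sulphur subunit, differed by −0.09 (SE 0.0814), Ndufv1, which binds FMN and oxidises NADH, by −0.05 (SE 0.059) and its partner Ndufv2 by 0.00 (SE 0.0532).

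The accessory subunits of complex I ranged from −0.17 to 0.07. After Ndufs1, the smallest p-values belonged to Ndufab1, the mitochondrial acyl carrier protein, at −0.10 (SE 0.0578), to Ndufv3 at −0.12 (SE 0.068) and to Ndufs3. Other probe sets of Ndufab1 above the filter, with mean log2 signals of 8.33, 6.49 and 6.07, differed by 0.02, −0.11 and −0.03. Ndufv3 had 10.75, 10.84, 10.89 and 10.84 in controls B, C, D and G and 10.73, 10.70, 10.84 and 10.57 on deleted arrays A, E, F and H. Replicates A, E and H lay below the lowest control, H by the most, and F among the controls. The most negative value, −0.17 for Ndufa7, had an SE of 0.105 and came from replicate A (9.48) and replicate H (9.66). Replicates E and F (9.81 and 9.94) lay above the lowest control, 9.77. The value also rests on 1 probe set. The other probe sets of Ndufa7, with mean log2 signals of 9.66, 7.92, 7.62 and 7.5, differed by −0.01, 0.04, 0.03 and −0.03. Ndufa1, a small membrane subunit, was the 1 gene of the complex whose E2f3-deleted values all lay above the controls, by 0.05 on average (13.43 to 13.51 against 13.41 to 13.43, apart only before rounding, SE 0.0445). Ndufb4, at a mean of 3.96 against 3.95 in the deleted group, was not tested.

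All 4 subunits of complex II, succinate dehydrogenase, which also belongs to the TCA cycle, had differences below 0 and overlapping groups. Sdhb, the iron-sulphur subunit, had log2 signals of 12.14, 12.16, 12.03 and 12.15 in controls B, C, D and G and 12.04, 11.98, 12.08 and 11.95 on deleted arrays A, E, F and H. The groups overlapped through control replicate D, which lay among the E2f3-deleted arrays. Its difference was −0.11 (SE 0.0558, adjusted p = 0.415 in limma), and −0.14 without control replicate D, where it had an unadjusted p under 0.05. Sdhd, one of the membrane anchors, differed by −0.09 (SE 0.0618), with the lowest value, 11.12, in replicate A. Sdha, the flavoprotein that oxidises succinate, differed by −0.07 (SE 0.0526), and Sdhc, the other anchor, by −0.04 (SE 0.0615).

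In complex III the widest spread was that of Uqcrc1, a core subunit on the matrix side. It had 10.72, 10.79, 10.77 and 10.68 in controls B, C, D and G, and 10.35, 10.80, 10.73 and 10.35 on deleted arrays A, E, F and H. Replicates A and H lay below every control, and E and F lay among or above them. The difference was −0.18 (SE 0.113, adjusted p = 0.486 in limma), −0.26 without replicate E and −0.11 without replicate H. The electron carriers of the complex stayed closer to 0. Cyc1, cytochrome c1, had 12.25 to 12.48 in controls and 12.15 to 12.37 in E2f3-deleted macrophages, a difference of −0.09 (SE 0.0734), and Uqcrfs1, the Rieske iron-sulphur protein, differed by 0.03 (SE 0.0694). The small subunits Uqcrh, the hinge protein, and Uqcrq differed by −0.03 (SE 0.0687) and −0.09 (SE 0.102). Uqcrb, at log2 13.99 to 14.03 in controls and 13.98 to 14.04 in E2f3-deleted macrophages, differed by 0.00 (SE 0.0444), though a signal so near the top of the scale is compressed.

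Cycs, the mobile carrier between complexes III and IV and a trigger of apoptosis when released, had 12.26, 12.31, 12.46 and 12.23 in controls and 12.23, 12.44, 12.20 and 12.24 on deleted arrays A, E, F and H. The groups overlapped throughout, and the difference was −0.04 (SE 0.0766, adjusted p = 0.839 in limma).

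Complex IV has several subunits with isoforms that differ between tissues, and it held the largest positive and the largest negative difference of the 87 genes. The groups overlapped in every broadly expressed form. Cox4i1 had 13.39 to 13.43 in controls and 13.33 to 13.44 in E2f3-deleted macrophages (difference −0.02, SE 0.048), Cox6a1 differed by 0.00 (SE 0.0507), Cox6b1 by 0.02 (SE 0.0444), Cox7a2 by 0.02 (SE 0.0531) and Cox8a by −0.12 (SE 0.0975). Cox8a was again lowest on replicates A (10.49) and H (10.61), with 10.86 and 10.90 on E and F and 10.77 to 10.90 in controls. Ndufa4 differed by −0.04 (SE 0.0562), its value of 10.50 on replicate A lying apart from 10.65 to 10.67 on the others of its group.

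The isoforms known from heart and skeletal muscle had low signals. Cox7a1 had 6.32, 6.40, 6.28 and 6.61 in controls B, C, D and G and 5.75, 6.34, 6.44 and 5.68 on deleted arrays A, E, F and H. As with Uqcrc1, replicates A and H were low and E and F lay among the controls. The difference was −0.35 (SE 0.185, adjusted p = 0.423 in limma), from −0.48 without replicate F to −0.22 without replicate H. Cox6a2 showed the same order, with 6.94 to 7.10 in controls, 6.76 and 6.72 on A and H and 7.04 and 7.0 on E and F (difference −0.15, SE 0.0872). Cox8b, under the filter, averaged 4.71 ± 0.0885 for control arrays and 4.99 ± 0.401 for deleted ones (SD, 4 arrays a group), its highest value of 5.53 on replicate H. Of 10 markers of striated muscle with a probe set (Ckm, Acta1 and others), 0 reached the filter, and their median log2 signal was 5.21 to 5.36 in controls and 5.03 to 5.23 in E2f3-deleted macrophages.

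Cox4i2, the isoform of lung and of low oxygen, and the testis isoforms Cox6b2 and Cox7b2 were also under the filter, with means of 5.18, 5.65 and 3.01 in controls and 5.02, 5.56 and 3.02 in E2f3-deleted macrophages. Cox8c, another testis isoform, had 7.28 ± 0.131 against 7.27 ± 0.0707 (SD, n = 4 each), a difference of −0.02 (SE 0.0766). None of these values separated the groups.

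The 2 largest positive differences among the 87 genes belonged to complex IV. Ndufa4l2, a paralogue of Ndufa4 that is induced by low oxygen and is known from pericytes, had 6.17, 6.41, 6.30 and 6.15 in controls B, C, D and G and 6.82, 6.82, 7.03 and 6.08 on deleted arrays A, E, F and H. Replicates A, E and F lay above every control and replicate H below them all. The difference was 0.43, or 1.35-fold (SE 0.192, adjusted p = 0.362 in limma), 0.64 without replicate H (unadjusted p under 0.05, smallest adjusted p of the leave-one-out fits 0.061) and 0.32 without replicate F. With arrays grouped by scan file letter, which exchanges control B with deleted F, the difference was gone (−0.000473). Among 9 markers of pericytes and smooth muscle, 0 passed the adjusted threshold and 4 had an unadjusted p under 0.05, 3 of them higher. Their median, relative to the control mean, was 1.34, 0.39, 1.35 and −0.41 on replicates A, E, F and H and −0.13 to 0.13 in controls, with 8 of 9 above 0. Cspg4 went the other way (−0.54), and Pdgfrb was highest on replicate H (10.58), where Ndufa4l2 was lowest. The median of 10 endothelial markers was 1.99, 1.07, 2.01 and 0.04, with all 8 tested above 0. Their part in the value of Ndufa4l2 was not tested.

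Cox7a2l, which joins complexes III and IV into supercomplexes, had 12.77, 12.71, 12.74 and 12.75 in controls and 13.05, 12.81, 12.88 and 12.77 on deleted arrays A, E, F and H. Replicate H equalled the highest control, and the other 3 lay above. The difference was 0.13 (SE 0.0678, adjusted p = 0.406 in limma), 0.08 without replicate A and 0.17 without replicate H, where the unadjusted p was under 0.05. Its other probe sets, with mean log2 signals of 12 and 11.13, differed by 0.09 (SE 0.0717) and 0 (SE 0.0714).

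**Figure D3:**
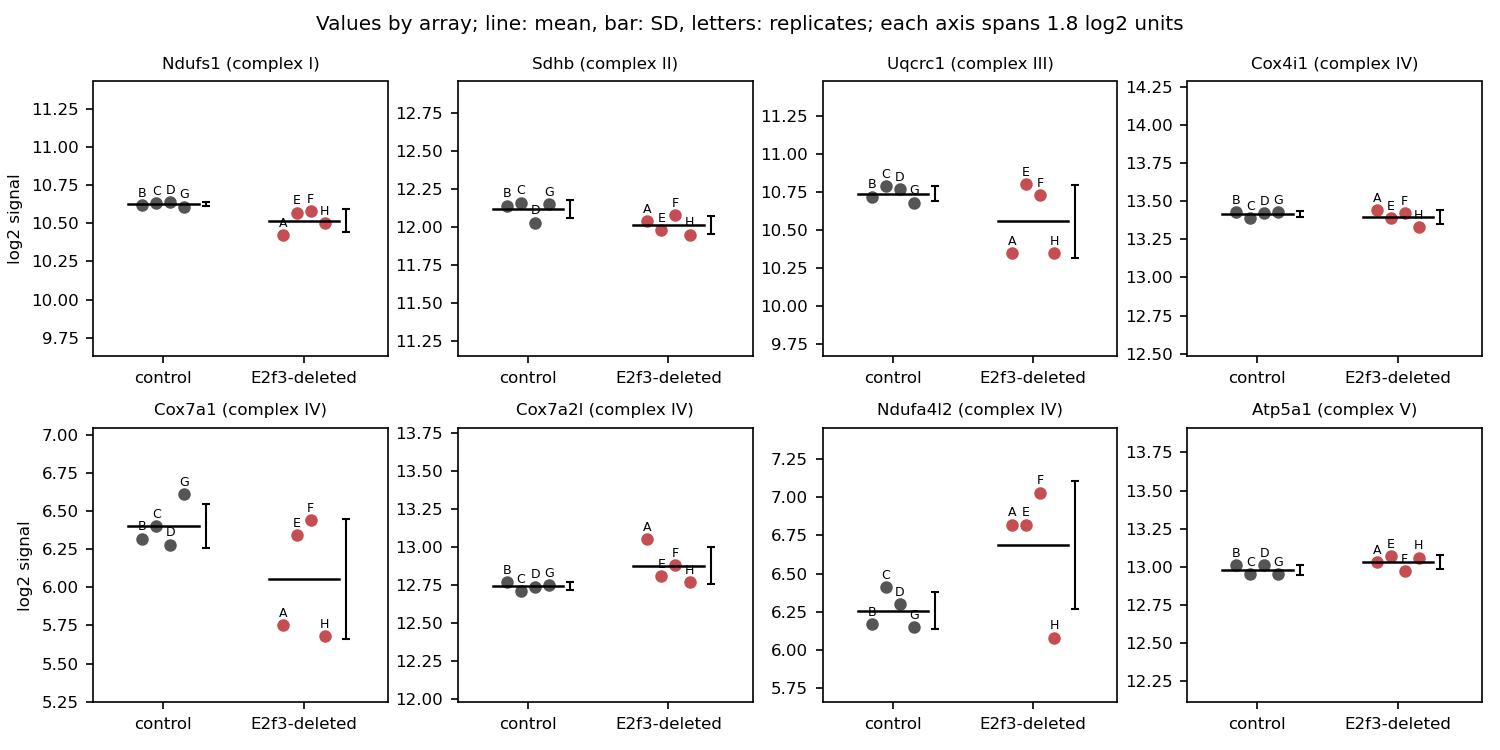
Log2 signal of 8 genes on each array, control in grey and E2f3-deleted in red, with replicate letters, the group mean (line) and SD (bar, n = 4); all axes span the same log2 range. Uqcrc1 and Cox7a1 are low on replicates A and H, Ndufa4l2 is high on A, E and F, and the groups overlap in Cox4i1 and Atp5a1.

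In complex V, the ATP synthase, the groups overlapped in the alpha and the beta subunit. Atp5a1, the alpha subunit, had 13.01, 12.95, 13.01 and 12.95 in controls and 13.03, 13.07, 12.97 and 13.06 on deleted arrays A, E, F and H, a difference of 0.05 (SE 0.0492), which became −0.0138 with the mean of its probe sets. Another bright probe set of Atp5a1 differed by −0.11 (SE 0.061). Atp5b, the beta subunit that forms ATP, had 12.18 to 12.35 against 12.04 to 12.24, a difference of −0.10 (SE 0.0689). The proton-carrying c-ring is encoded by Atp5g1, Atp5g2 and Atp5g3, which give the same mature protein. Their differences were −0.14 (SE 0.118), −0.13 (SE 0.0931) and 0.02 (SE 0.0517). Atp5g1 and Atp5g2 were lowest on replicates A (10.08 and 10.47) and H (10.14 and 10.61), and Atp5g3 had 13.45 and 13.51 there, within or just below the control range of 13.47 to 13.56.

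Atp5mpl, a small membrane subunit, had the smallest p of complex V, with a difference of −0.14 (SE 0.0738, adjusted p = 0.422 in limma). Its values of 10.50, 10.70, 10.70 and 10.50 on replicates A, E, F and H overlapped the 10.63 to 10.83 of the controls. Atp5j, a coupling factor in the stalk, had 12.73 to 12.77 in E2f3-deleted macrophages and 12.66 to 12.72 in controls, without overlap, a difference of 0.05 (SE 0.0445).

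Among the assembly factors, Ndufaf5 had a difference of −0.12 (SE 0.0622, adjusted p = 0.403 in limma), with 8.20, 8.23, 8.32 and 8.39 in controls B, C, D and G and 8.11, 8.25, 8.15 and 8.13 on deleted arrays A, E, F and H. Replicate E overlapped the controls. Ndufaf4 differed by −0.11 (SE 0.0608), Ndufaf3 by −0.04 (SE 0.0713) and Ndufaf1 by 0.08 (SE 0.0676), and the other Ndufaf genes lay between −0.02 and 0.02. The other probe set of Ndufaf4, with a mean log2 signal of 8.16, differed by 0.03 (SE 0.0715).

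The lowest values were not spread evenly over the arrays. Replicate A had the lowest of the 8 values in 28 of the 87 genes (32.2%), against 16.2% of all genes tested, and replicate H in 26 (29.9%), about the 30.1% of all genes. Control D was lowest in 0 of the 87, against 9.55% of all genes. The median of the 87 relative to the control mean was −0.07 on both A and H and 0.02 on both E and F, while the controls B, C, D and G had −0.03, −0.02, 0.03 and 0.03. For complex III the values were −0.15 on A, −0.08 on H, 0.03 on E and 0.04 on F, and for complex II −0.12, −0.09, −0.01 and −0.05. The medians of complexes III and V turned above 0 without replicate A (0.003 and 0.009), and that of complex V also without replicate H (0.012).

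The same 2 arrays had the largest difference between the Gapdh probe sets at the 3′ end and at the 5′ end of the transcript, which grows as RNA breaks down. It was 1.87 on A and 1.73 on H, 1.48 and 1.59 on E and F, and 1.39 to 1.53 in controls. The part of RNA integrity in these values was not tested. The 7 fibroblast markers had a median of 0.98 on A and 2.33 on H, of −0.58 and −0.08 on E and F, and of −0.81 to 0.45 in controls. The 7 mast cell markers had 0.75 on A, 1.23 on E, −0.34 on F and 3.99 on H, and the endothelial markers 1.99 on A and 0.04 on H. The part of these cell types was not tested. The 11 macrophage markers, with a median log2 signal of 13.38 to 13.59 in controls, were at −0.18, −0.06, −0.07 and −0.23 on A, E, F and H. Lyz2, Csf1r and C1qa had control means of 14.56, 14.33 and 14.25, so near the top of the scale that differences are compressed. The 9 markers of dividing cells were at −0.54, −0.09, −0.39 and −0.18, with 9 of 9 below 0 (median difference −0.31). In a mixed sample, fewer cells of a type and less RNA per cell cannot be told apart.

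**Figure D4:**
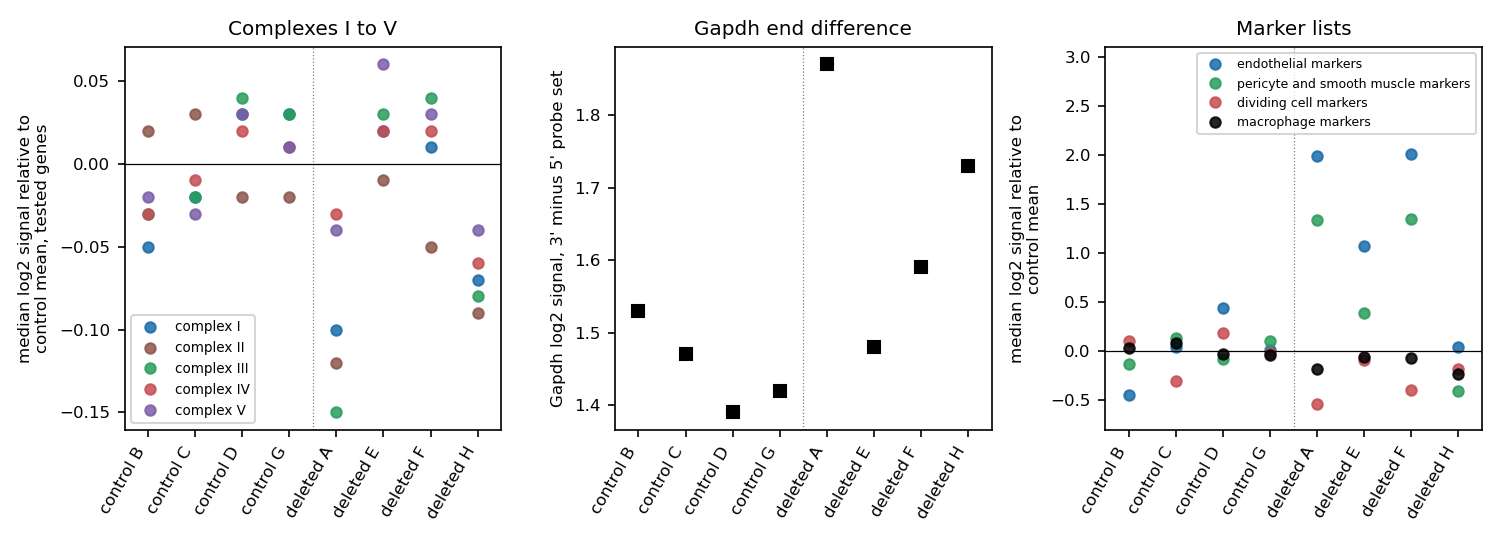
Per array, the median log2 signal of complexes I to V relative to the control mean (left), the Gapdh 3′ minus 5′ log2 difference (middle) and the medians of 4 marker lists (right); the vertical line divides 4 control from 4 E2f3-deleted arrays. Complexes I to III are lowest on replicates A and H, which have the largest Gapdh difference, 1.87 and 1.73.

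Other cell types were measured by short marker lists. Median differences were 1.38 for endothelial markers (8 tested), 0.78 for pericytes and smooth muscle (9), 0.65 for fibroblasts (7), 0.43 for epithelium (10), 1.31 for mast cells (7) and −0.13 for T cells (2), against −0.13 for macrophages (11). For adipocytes 0 of 6 genes with a probe set reached the filter. Each of these cell types also uses oxidative phosphorylation, and their part in the values of the 87 genes was not tested. E2f3 itself had probe sets at 7.67 and 6.16 in controls and 7.63 and 6.02 in E2f3-deleted macrophages, and whether these lie in the deleted part is not given in the labels.

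The spread within groups was small for these genes. The median SD was 0.056 in controls and 0.0846 in E2f3-deleted macrophages, against 0.103 and 0.137 over all genes tested, and 63 of the 87 genes (72.4%) varied more among the E2f3-deleted arrays, against 67.7% of all genes. The signs were also counted by signal level, without a test. Of the 31 genes with a mean log2 signal of 12 or more, 15 had a difference below 0 (median 0.00), and of the 56 dimmer genes, 45 did (median −0.05). Over all genes tested the shares below 0 were 60.2% and 58.6%.

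Other mitochondrial gene lists lay near the same place, and none had a gene past the adjusted threshold in limma. Further assembly and maturation factors had a median difference of −0.05, with 28 of 38 below 0 and 2 at an unadjusted p under 0.05, both lower, where 14.2% of all genes tested lay under that p. These were Cox10, an enzyme of haem A synthesis (−0.19, SE 0.0683), and Nubpl, an iron-sulphur carrier for complex I (−0.15, SE 0.0585). The TCA cycle had −0.05 (12 of 16 below 0, 1 at an unadjusted p under 0.05), with Pdhx of the pyruvate dehydrogenase complex at −0.14 (SE 0.046) and Suclg2 of succinyl-CoA ligase at −0.11 (SE 0.0525). Electron entry by other routes and ATP exchange had −0.04 (9 of 13), the channels Vdac2 and Vdac1 being at −0.10 (SE 0.0508) and −0.09 (SE 0.0532). Ubiquinone synthesis had −0.04 (8 of 12), with Coq8b at −0.19 (SE 0.0802) and Coq7 at −0.13 (SE 0.0574), both at an unadjusted p under 0.05.

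Regulators of mitochondrial biogenesis had a median of −0.05 (10 of 16 below 0, against 58.7% of all genes tested, and 3 at an unadjusted p under 0.05, against 14.2%). Nrf1, a transcription factor that acts on many genes of the respiratory chain, had 8.76, 8.47, 8.64 and 8.48 in controls B, C, D and G and 8.44, 8.29, 8.23 and 8.42 on deleted arrays A, E, F and H. The groups did not overlap, and the difference was −0.24 (SE 0.0848, adjusted p = 0.280 in limma), but 0.0221 with the arrays grouped by scan file letter. Polg, the mitochondrial DNA polymerase, differed by −0.18 (SE 0.0676). Import genes had a median of −0.06 (14 of 19), with the outer membrane pore Tomm40 at −0.25 (SE 0.0953) and Timm44, a partner of the import motor, at −0.13 (SE 0.0558).

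Of these other mitochondrial lists, the ribosome had the most one-sided signs, with 71 of 76 genes below 0 (93.4%, against 58.7% of all genes tested) and a median of −0.09. An unadjusted p under 0.05 was found for 4 of the 76, 3 of them lower, against 14.2% of all genes tested, and on the arrays the median was −0.11, −0.01, 0.00 and −0.20 on replicates A, E, F and H and −0.04 to 0.05 in controls. Mrps6 went the other way, with 10.90 to 11.12 in controls and 11.35 to 11.48 in E2f3-deleted macrophages, a difference of 0.39 (SE 0.0665, adjusted p = 0.158 in limma), and Mrps27 differed by −0.20 (SE 0.0659).

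Promoters were read for sites of the deleted factor and of known regulators of the respiratory chain, since the groups differ in an E2F gene. RefSeq promoters (GRCm38.p6, 250 bases before to 50 after the gene start) were found for 75 of the 92 genes, and both strands were searched. An E2F motif (TTTCCCGC, TTTCGCGC, TTTGCCGC or TTTGGCGC) was found in 2 of the 75 (2.67%), Cox5a and Cox8a, against 2.60% of 27025 genes in the table and 4.87% of those tested. Both promoters are shown 5′ to 3′ on the strand of the gene, with the E2F match in capitals. That of Cox5a lies at chr9:57520982-57521281 (plus strand) and that of Cox8a at chr19:7217567-7217866 (minus strand).
Cox5a: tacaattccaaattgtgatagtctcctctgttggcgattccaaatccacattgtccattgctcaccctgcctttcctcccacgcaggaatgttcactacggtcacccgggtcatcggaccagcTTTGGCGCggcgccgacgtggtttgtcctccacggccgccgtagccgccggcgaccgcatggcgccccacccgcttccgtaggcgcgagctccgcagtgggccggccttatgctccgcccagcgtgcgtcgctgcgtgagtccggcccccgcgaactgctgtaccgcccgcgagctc
Cox8a: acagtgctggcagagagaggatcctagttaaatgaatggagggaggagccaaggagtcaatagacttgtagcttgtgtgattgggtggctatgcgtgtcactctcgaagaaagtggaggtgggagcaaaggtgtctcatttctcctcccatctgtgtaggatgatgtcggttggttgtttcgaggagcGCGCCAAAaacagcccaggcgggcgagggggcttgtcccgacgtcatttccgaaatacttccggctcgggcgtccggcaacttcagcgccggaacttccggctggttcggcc
Cox5a differed by −0.01 (SE 0.0611) and Cox8a by −0.12 (SE 0.0975). The other probe sets of Cox5a, with mean log2 signals of 12.82 and 11.97, differed by −0.16 (SE 0.08) and −0.01 (SE 0.0697). Counted from the gene start, the match of Cox5a begins at base −127 and that of Cox8a at base −62. In Cox8a the capitals are the reverse complement of TTTGGCGC, so the motif lies on the strand opposite to the one printed. Cox8a also holds the ETS motif CCGGAAGT at 2 places, on that same opposite strand.

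The palindromic consensus of NRF1, whose letters are the capitals in the Uqcrc1 promoter printed here, was found in 6 of the 75 promoters (8.0%), those of Uqcrc1, Atp5g2, Ndufaf5, Ndufaf4, Atp5k and Cox6a1, against 1.07% of the table and 2.45% of the genes tested. Their differences ranged from −0.18 to 0.00 with a median of −0.12, against −0.03 for the 65 tested genes whose promoters lack the letters. This contrast rests on 6 genes and was not tested. They include Uqcrc1 and Atp5g2, which were lowest on replicates A and H. A YY1 motif (AAGATGGC) was found in 10 (13.3%, against 3.19% and 5.53%), with a median difference of −0.02, and the ETS motif in 5 (6.67%, against 4.31% and 9.25%), with a median of −0.03. Genes lacking the YY1 or the ETS letters had −0.03 in each case. For E2F the medians were −0.06 with the motif and −0.03 without. The promoters of Uqcrc1, with the NRF1 match in capitals, and of Ndufa9, a complex I subunit with a difference of −0.08, with the YY1 match in capitals, show where these letters lie. The first is at chr9:108936398-108936697 (plus strand) and the second at chr6:126849095-126849394 (minus strand).
Uqcrc1: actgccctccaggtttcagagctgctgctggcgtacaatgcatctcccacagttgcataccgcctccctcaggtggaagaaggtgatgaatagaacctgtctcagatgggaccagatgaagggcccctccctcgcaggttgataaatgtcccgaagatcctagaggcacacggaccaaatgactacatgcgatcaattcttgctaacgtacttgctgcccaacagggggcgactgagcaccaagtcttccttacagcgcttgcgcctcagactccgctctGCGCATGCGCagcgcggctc
Ndufa9: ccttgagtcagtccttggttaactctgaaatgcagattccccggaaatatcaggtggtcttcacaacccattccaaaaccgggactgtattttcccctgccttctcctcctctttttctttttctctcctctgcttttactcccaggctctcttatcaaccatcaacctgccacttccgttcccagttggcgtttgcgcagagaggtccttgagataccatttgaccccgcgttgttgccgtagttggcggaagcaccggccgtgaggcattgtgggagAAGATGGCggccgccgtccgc
In both, the match starts within the first 50 bases after the gene start, at base 31 and base 30. A match is a description of the letters, and no binding was measured.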

How the data were processed

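The authors deposited log2 signals for 45101 probe sets of 8 Affymetrix arrays, computed with RMA per the submitters' processing notes. Its version is not given in the sources used here. They were used as deposited. Genes were named from the platform annotation, using probe sets with 1 symbol and, per gene, the probe set of highest mean over all arrays. Genes under the 40th percentile of mean signal (log2 6.0) were left out, leaving 10916. The groups were compared in limma 3.58.1 (R 4.3.3) with lmFit and eBayes; p-values are two-sided and were adjusted by Benjamini-Hochberg over all genes tested, with all 8 arrays and no covariate. The members, lists and tests were chosen with earlier results of these data known.

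Named genes were fixed by rule: tissue isoforms and paralogues, the Sdh genes, Cyc1 and Cycs, catalytic core subunits, the 4 smallest p per complex and the 2 smallest per other list. Others (Ndufa7, Ndufa1, Ndufb4, Ndufa9, Uqcrh, Uqcrb, Atp5g1, Atp5g3 and the members with promoter motifs) were chosen after their values were seen. On simulated arrays of the 10916 genes the test recovered 56.7% of log2 changes of 0.5, 94.0% of 1 and 97.0% of 2. The 4 arrays a group limit the precision, which also differed with the spread of each gene.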

Additional observations from a re-analysis of the deposited data

Results flagged for a closer look

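In a group of 4 arrays, a value was picked out by Dixon's test of its gap to the nearest other value at the 95% level, which chance gives in about 1 of 20 groups; 6 of 114 groups were picked out. In controls these were Cox4i1 on replicate C (13.39, others 13.42 to 13.43) and Sdhb on replicate D (12.03, others 12.14 to 12.16). Among E2f3-deleted arrays they were Ndufa4 on replicate A (10.50, others 10.65 to 10.67), Ndufs7 on replicate H (11.22, others 11.41 to 11.42) and Cycs on replicate E (12.44, others 12.20 to 12.24), which also sets the cytochrome c value of 0.13 above the control mean on that array (others −0.12 to −0.08).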

How the results depend on the processing

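The 87 genes had 0 past the adjusted threshold under every alternative run. Over all genes that count was 0, except 60 without replicate E and 14 without replicate H (range 0 to 60 leaving out 1 array). At an unadjusted p under 0.05, all genes gave 1010 to 1855 leaving out 1 array, 945 with a 60th percentile filter, 449 with grouping by scan file letter, 3159 with median centring over genes and 1026 without both A and H. The 87 gave 0 to 4 leaving out 1 array (at most 4.6%, against 9.25% to 17% of all genes). They gave 1 when probe sets were averaged (Ndufa12, 1.15%, against 14.7% of all genes) and 2 with array weights (2.3%, against 16.1%). With quantile normalization over genes they gave 3 (3.45%, against 17.9%). Without moderation the 87 gave 5, where the share of all genes was not counted, and without A and H 1. They gave 7 with the scan letters (8.05%, against 4.11% of all genes) and 22 with centring over genes (25.3%, against 28.9%).

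Centring over genes moved the medians to −0.139 (complex I), −0.181 (II), −0.134 (III), −0.119 (IV), −0.126 (V), −0.121 (assembly factors) and −0.13 (all 87), and those of the other lists to −0.15 (further assembly), −0.155 (TCA cycle), −0.15 (regulators), −0.193 (ribosome), −0.156 (import), −0.139 (electron entry) and −0.141 (ubiquinone), where all genes had −0.129. Quantile normalization over genes gave −0.096 (further assembly), −0.111 (regulators), −0.107 (ubiquinone) and −0.056 (all genes), with −0.028 for the 87. The mean of probe sets gave −0.077 (electron entry) and −0.098 (ubiquinone), and the scan letters −0.103 (complex III). Without A and H the medians were 0.023 (I), 0.062 (III), 0.02 (IV), 0.038 (V) and 0.023 (all 87). Among the genes named by rule, the sign turned for Ndufa4l2 (−0.000473), Sdha (0.0204) and Nrf1 (0.0221) with the scan letters. It also turned for Atp5a1 with the mean of probe sets (−0.0138). With centring over genes it turned for Atp5a1 (−0.0496), Atp5j (−0.0463) and Ndufaf1 (−0.0227). The cause was not tested. Turns of sign of differences smaller than their SE are not listed, nor are those of genes outside the rule. With centring over genes 97.7% of the 87 lay below 0, so genes outside the rule turned as well, Ndufa1 and Ndufb3 among them. The versions over genes and the one without A and H were chosen after seeing the data. No paired analysis was possible because no replicate letter occurs in both groups. Dim genes and 4 arrays per group limit what can be seen.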
